A study of Mus musculus with 4 samples.

Results

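The class I histone deacetylases and the scaffold subunits that carry them were followed in mouse 2-cell embryos. They are the deacetylase genes Hdac1, Hdac2, Hdac3 and Hdac8, the scaffolds Sin3a, Sin3b, Ncor1 and Mta2, and the histone-binding proteins Rbbp4 and Rbbp7. These 10 genes were chosen by name, and all 10 were found among the 30049 Ensembl genes of the deposited table. Embryos were wild type, of the F2 background BDF1 × BDF1, from BDF1 mice 8 to 12 weeks old. Zygotes taken from 18 h after hCG (human chorionic gonadotropin, which triggers ovulation) were kept for 24 h in KSOM, a culture medium for early embryos, alone (control) or with 2% dimethyl sulfoxide (DMSO), a common solvent. Each group has 2 libraries, numbered 1 and 2, and 50 2-cell embryos were collected per group. The labels do not say whether the libraries of a group came from separate cultures or litters, so p-values measure only the spread between these libraries.

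Class I deacetylases remove acetyl groups from histone tails, and they act inside large corepressor complexes rather than alone. Hdac1 and Hdac2 are close paralogs that sit in the SIN3, NuRD and CoREST complexes, Hdac3 works with the NCoR corepressor, and Hdac8 acts outside these complexes. Sin3a and Sin3b are the alternative scaffolds of SIN3, Mta2 recruits the deacetylases into NuRD, and Rbbp4 and Rbbp7 hold histones in both. In the mouse embryo Hdac1 is known as a main class I deacetylase of the preimplantation stages.

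In DMSO-treated embryos the RNA of Hdac1 and Rbbp4 fell about 2-fold, to 0.504 and 0.498 of the control level, and the RNA of Sin3b rose 2.05-fold. Hdac2 pointed the other way from its paralog Hdac1, at 28.3 TPM against 17.1 TPM in control embryos, but did not pass the test. Rbbp7 and Ncor1 differed by less than their standard errors. TPM is a level per transcript length and per library total, which allows levels of genes to be set side by side. Some genes that cells generally use were listed low, such as Actb at 1.09 and 0.706 TPM in control libraries and 8.58 and 0 TPM in DMSO libraries. Orders, shares and ratios between genes, and the low place of Hdac3, are therefore those of the listed values. In bulk libraries such as these, fewer cells and less RNA per cell cannot be told apart. All fold changes are on the log2(TPM + 1) scale, which understates those of low genes.

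Over the 12038 genes whose mean reached 1 TPM, limma, a linear model that pools variance information across genes, called 20.5% at a Benjamini-Hochberg adjusted p-value under 0.05, 14.1% lower and 6.42% higher in DMSO-treated embryos. Of the 10 genes followed here, 2 were called lower and 1 higher, a share near that of all genes tested. Their median log2 fold change was 0.01, and that of all genes -0.09. The values of the groups did not overlap for 4 of the 10 on the lower side and for 3 on the higher side, beside 38.7% and 31.1% of all genes tested. Hdac3 passed the filter on low values only through the DMSO libraries, and Hdac8 only through the control libraries. Of all calls 31.3% were higher, a split that rose to 42.9% with median-ratio scaling and to 49.0% with quantile normalization. Quantile normalization moved the median of all genes to 0.01 and that of the 10 genes to 0.28. The median of the 10 genes was -0.18 without DMSO library 1 and 0.19 without DMSO library 2.

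Shared sequence bears on how far these genes can be told apart, because kallisto, the tool the authors used, divides reads that match several transcripts. Shown here is the coding stretch around the catalytic HHGDG motif of Hdac1, with the same place in its processed pseudogene Gm10093 and in Hdac2. It runs 5′ to 3′ over 111 bases, with bases that differ from Hdac1 in capitals (GENCODE M21, GRCm38).
Hdac1: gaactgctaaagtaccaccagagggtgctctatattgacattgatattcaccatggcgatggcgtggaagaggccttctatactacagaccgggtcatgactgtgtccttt
Gm10093: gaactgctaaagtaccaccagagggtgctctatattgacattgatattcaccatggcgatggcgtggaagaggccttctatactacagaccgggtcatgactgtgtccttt
Hdac2: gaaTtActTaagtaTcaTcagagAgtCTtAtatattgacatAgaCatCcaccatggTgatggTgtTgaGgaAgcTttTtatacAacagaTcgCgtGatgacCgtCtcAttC
The Hdac1 stretch lies in exon 5 (chr4:129522963-129522973) and exon 6 (chr4:129522405-129522504), on the minus strand. That of Hdac2 lies in exon 5 (chr10:36989278-36989288) and exon 6 (chr10:36991757-36991856), on the plus strand, and that of Gm10093 at chr17:78492065-78492175, on the plus strand. Hdac2 differed from Hdac1 at 27 of the 111 bases, and none of the 81 words of 31 bases in the stretch, the word length kallisto uses by default, occurs in Hdac2. Over the whole coding sequence Hdac1 and Hdac2 were 75.9% identical and shared 0 such words. The pseudogene was identical over this stretch and 99.4% identical over 1444 aligned bases.

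Hdac1 (ENSMUSG00000028800, chromosome 4 of GRCm38 from 129516104 to 129542713) was the most abundant class I deacetylase, with 183 and 169 TPM in control libraries 1 and 2 and 96.6 and 80.2 TPM in DMSO libraries 1 and 2. Both DMSO libraries lay below both control libraries. The difference on the log2 scale was -0.99 with a standard error of 0.25 (limma adjusted p = 0.0402). The call was lost when any one library was left out, with log2 fold changes from -1.12 to -0.86 and limma adjusted p-values from 0.0912 to 0.215. In 3 of these 4 fits limma called 0 of the 12038 genes, with 2602 to 3745 at an unadjusted p-value under 0.05. Words shared with other genes made up 40.0% of the Hdac1 words, and Gm10093 (chromosome 17 from 78491582 to 78493025) held 34.8%. The 2 other genes holding at least 5% of them, Gm4864 and AC125456.1, were not analysed here. Gm10093 was listed with 31.3 and 27.5 TPM in control libraries and 16.3 and 12.3 TPM in DMSO libraries. The ratio of Hdac1 to Gm10093 was 5.83 and 6.15 in control libraries and 5.91 and 6.53 in DMSO libraries, and the groups overlapped. How many reads were divided between them was not tested. With both summed, the log2 fold change of Hdac1 was -1.00, and the call was kept (limma adjusted p = 0.0397).

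Hdac2 (ENSMUSG00000019777, chromosome 10 from 36974544 to 37001889) was at 20.9 and 13.3 TPM in control libraries and at 30.0 and 26.5 TPM in DMSO libraries. The groups did not overlap, although the control libraries differed more from each other than the DMSO libraries did. The log2 fold change of 0.72 (standard error 0.32) did not pass the test (limma adjusted p = 0.141), and its 95% interval ran from -0.04 to 1.49. None of its words occurs in another gene.

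Hdac8 (chromosome X from 102284639 to 102505359), a class I enzyme with targets outside chromatin as well, was at 1.38 and 3.04 TPM in control libraries and at 0.655 and 1.33 TPM in DMSO libraries. These values were close to the filter on low values, and the log2 fold change of -0.66 had an interval from -1.65 to 0.33 (limma adjusted p = 0.266). With a pseudocount of 0.1 the log2 fold change of Hdac8 was -1.05 (limma adjusted p = 0.291). Hdac3 (chromosome 18 from 37935844 to 37955016), the catalytic subunit of the NCoR complex, was the lowest member in control embryos at 0.201 and 0.569 TPM. In DMSO libraries it was at 1.90 and 1.93 TPM. The log2 fold change was 1.09 (limma adjusted p = 0.0695), and 2.17 with a pseudocount of 0.1, with limma adjusted p = 0.104. TPM values keep no depth, so no counting error can be put on levels this low.

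**Figure D1:**
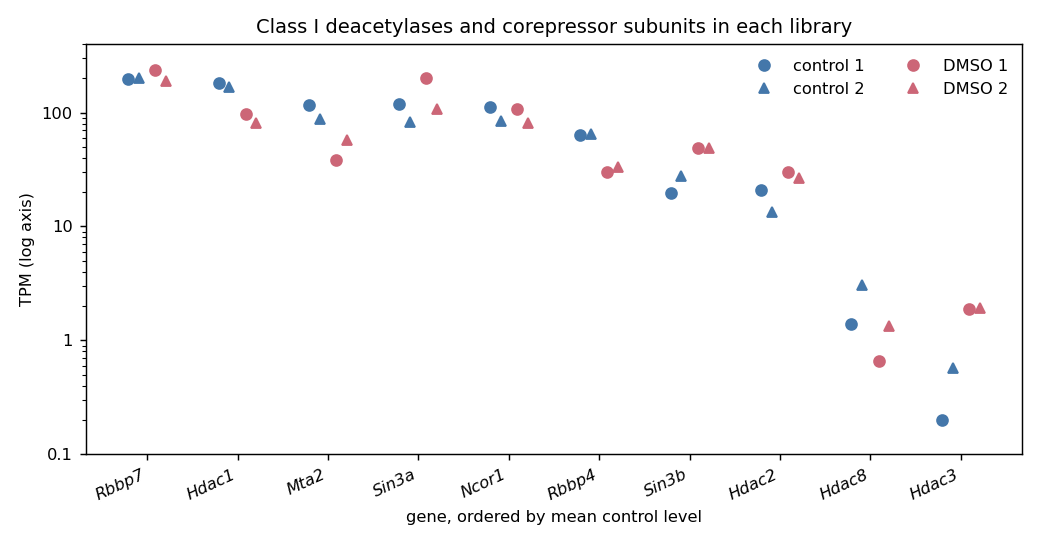
TPM of each of the 10 genes (log axis) in the 2 control libraries (blue) and the 2 DMSO libraries (red), circles for library 1 and triangles for library 2, ordered by mean control level. The DMSO points lie below both control points for Hdac1, Mta2, Rbbp4 and Hdac8, above both for Sin3b, Hdac2 and Hdac3, and overlap the control points in range for Rbbp7, Sin3a and Ncor1.

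The 4 class I deacetylase genes together summed to 205 and 186 TPM in control libraries and to 129 and 110.0 TPM in DMSO libraries. The sum was lower in both DMSO libraries, at 119.5 ± 13.6 TPM against 196 ± 13.7 TPM (SD, n = 2), with an exact two-sided permutation p = 0.33, the smallest that 2 libraries against 2 allow. Hdac1 made up 89.1% and 90.9% of this sum in control libraries and 74.8% and 72.9% in DMSO libraries. Hdac2 made up 10.2% and 7.17% in control libraries and 23.2% and 24.1% in DMSO libraries. A TPM value gives the share of a transcript among the transcripts quantified in a library, not its amount per embryo.

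**Figure D2:**
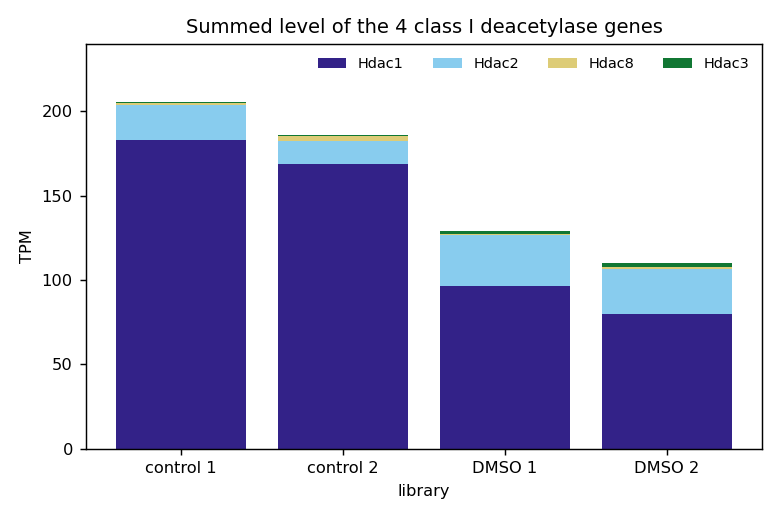
Summed TPM of Hdac1, Hdac2, Hdac8 and Hdac3 in each of the 4 libraries, each bar starting at 0 and stacked by gene. The bars reach 205 and 186 TPM in control libraries and 129 and 110.0 TPM in DMSO libraries, with Hdac1 as the largest part of each and a larger Hdac2 part in the DMSO bars.

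Ratios of paralogs within a library do not depend on the scaling between libraries, and 5 of the 6 compared are described here. Hdac1 exceeded Hdac2 by 8.76 and 12.7 times in control libraries and by 3.22 and 3.03 times in DMSO libraries. The DMSO ratios were thus below both control ratios, by -1.76 on the log2 scale, and this difference stayed between -2.02 and -1.49 without any one library. The ratio of Rbbp4 to Rbbp7 was 0.322 and 0.325 in control libraries and 0.127 and 0.177 in DMSO libraries, a log2 difference of -1.11. Mta2 exceeded its NuRD paralog Mta1 by 101 and 51.7 times in control libraries and by 17.1 and 30.5 times in DMSO libraries, a log2 difference of -1.66, with Mta1 at 2.24 TPM or less in every library. The ratios of Sin3a to Sin3b (log2 difference -0.49) and of Mta2 to Mta3 (log2 difference -0.49) overlapped between groups. The latter difference was -0.08 without DMSO library 1 and -0.90 without DMSO library 2. Each ratio whose groups lay apart had an exact two-sided permutation p = 0.33, the smallest this design allows, or 0.50 adjusted over all 6 ratios.

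**Figure D3:**
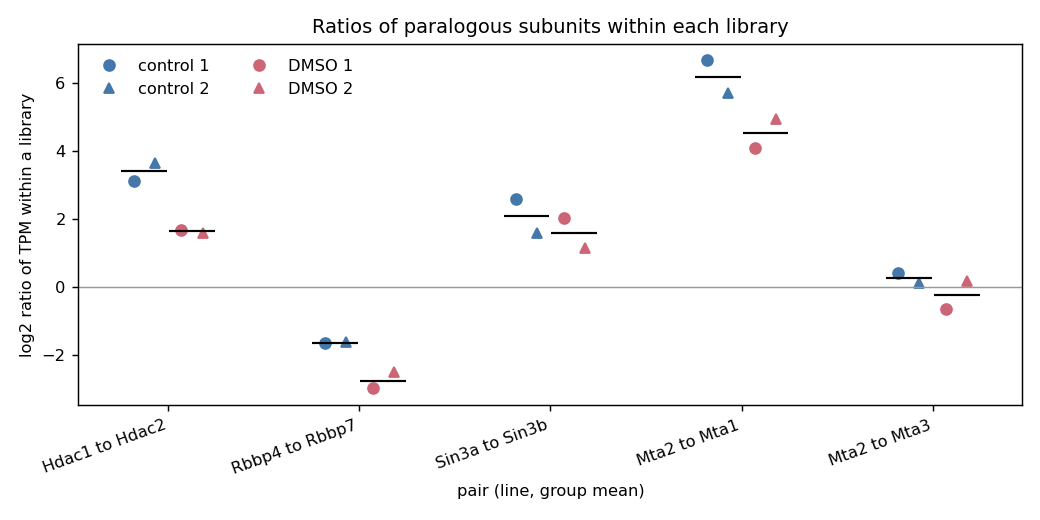
Log2 ratio of TPM within each library for 5 pairs of paralogs, control in blue and DMSO in red, circles for library 1 and triangles for library 2, with lines at the group means. The DMSO points lie below both control points for Hdac1 to Hdac2, Rbbp4 to Rbbp7 and Mta2 to Mta1, and the groups overlap for Sin3a to Sin3b and Mta2 to Mta3.

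Among the scaffolds, Sin3b (ENSMUSG00000031622, chromosome 8 from 72723285 to 72758201) was at 19.7 and 27.5 TPM in control libraries and at 49.1 and 48.8 TPM in DMSO libraries. Both DMSO libraries stood well above both control libraries, and the log2 fold change of 1.04, with a standard error of 0.29, passed the test (limma adjusted p = 0.0484). The call was lost with a pseudocount of 0.1 (1.07, limma adjusted p = 0.0557) and when any one library was left out, with log2 fold changes from 0.81 to 1.27 and limma adjusted p-values from 0.0944 to 0.217. Sin3a (chromosome 9 from 57072040 to 57128366), the more abundant scaffold, was at 118 and 82.1 TPM in control libraries and at 201 and 107 TPM in DMSO libraries. These groups overlapped, since control library 1 lay above DMSO library 2, and the log2 fold change of 0.57 had an interval from -0.32 to 1.46 (limma adjusted p = 0.282).

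Mta2 (chromosome 19 from 8941875 to 8952303), the NuRD scaffold, was at 116 and 87.5 TPM in control libraries and at 38.4 and 56.9 TPM in DMSO libraries. Its log2 fold change of -1.09 (standard error 0.31) was as large as that of Hdac1, but its limma adjusted p = 0.0512 fell just outside the threshold. With genes filtered at a mean of at least 5 TPM, Mta2 passed it (limma adjusted p = 0.0363). It also passed with each library rescaled to the same sum over the table (-1.12, limma adjusted p = 0.0490). Of 9 alternatives that kept all libraries, 3 called Mta2. It did not with quantile normalization (-0.82, limma adjusted p = 0.107) or without DMSO library 1 (-0.81, limma adjusted p = 0.191). Ncor1 (chromosome 11 from 62316426 to 62458541), the corepressor that binds Hdac3, was at 111 and 84.5 TPM in control libraries and at 107 and 80.4 TPM in DMSO libraries. Its log2 fold change was -0.06 with an interval from -0.75 to 0.63 (limma adjusted p = 0.884), and the sign turned with median-ratio scaling (0.04) and with quantile normalization (0.22).

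Rbbp4 (ENSMUSG00000057236, chromosome 4 from 129307100 to 129335370) was at 64.1 and 64.8 TPM in control libraries and at 30.1 and 33.2 TPM in DMSO libraries, with little spread inside either group. Rbbp4 fell by 1.01 on the log2 scale with a standard error of 0.25 (limma adjusted p = 0.0400), and the call was lost without any one library (limma adjusted p-values from 0.0619 to 0.231), with log2 fold changes from -1.07 to -0.94. With median-ratio scaling Rbbp4 also lost its call (-0.91, limma adjusted p = 0.0539). Its exons overlap those of Sync on the opposite strand over 782 bases, and Sync was at 0.997 TPM or less in every library. Another gene on the opposite strand, Gm26722, overlaps it over 796 bases and was not analysed here. With Sync added, the log2 fold change of Rbbp4 was -1.02. Words shared with other genes made up 22.0% of the Rbbp4 words. The close paralog Rbbp7 (chromosome X from 162760402 to 162779092) was at 199 and 199.6 TPM in control libraries and at 236 and 188 TPM in DMSO libraries. Its log2 fold change of 0.08 had an interval from -0.52 to 0.68 (limma adjusted p = 0.825). The pseudogene Gm6382 holds 11.6% of the Rbbp7 words and was listed at 0 in all 4 libraries.

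Quantile normalization, which sets all libraries to the same distribution, moved Hdac1 to -0.71 (limma adjusted p = 0.0807) and Rbbp4 to -0.74 (limma adjusted p = 0.0826), and Sin3b to 1.28 (limma adjusted p = 0.0375). Hdac1 and Rbbp4 thus lost their calls there and kept their directions, and Sin3b kept its call.

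In control embryos the order of mean levels was Rbbp7 (199 TPM), Hdac1 (176), Mta2 (102), Sin3a (libraries at 118 and 82.1), Ncor1 (97.8), Rbbp4 (64.5), Sin3b (23.6), Hdac2 (17.1), Hdac8 (2.21) and Hdac3 (0.385 TPM). Mta2, Sin3a and Ncor1 did not differ beyond their spread, nor did Sin3b and Hdac2. In DMSO-treated embryos the order was Rbbp7 (212 TPM), Sin3a (154), Ncor1 (93.8), Hdac1 (88.4), Sin3b (48.9), Mta2 (47.6), Rbbp4 (31.6), Hdac2 (28.3), Hdac3 (1.91) and Hdac8 (0.992 TPM). There the ranges of Rbbp7 and Sin3a, of Ncor1 and Hdac1, and of Sin3b and Mta2 overlapped, and those of Sin3a and Ncor1 met at 107 TPM. Among the genes tested, Hdac1 stood at percentiles 94.1 and 93.7 of control libraries and 90.5 and 89.3 of DMSO libraries, and Hdac2 at 66.5 and 60.2 and at 75.6 and 74.5.

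The other subunits of the same complexes were listed by name, 34 in all, of which 33 were in the table and 29 passed the filter. limma called 4 of the 29 lower and 0 higher, beside 14.1% and 6.42% of all genes, and 13 had an unadjusted p-value under 0.05 (44.8%, beside 40.2% of all genes tested). Their median log2 fold change was -0.49. Of 12 SIN3 subunits 2 were called lower, with a median of -0.59, and 9 had DMSO libraries below both control libraries, as did 38.7% of all genes tested. Of 9 NuRD subunits tested 1 was called lower, with a median of 0.11, and of 5 CoREST and 2 NCoR subunits 0 were called, while 2 of each had an unadjusted p-value under 0.05, beside the same 40.2% of all genes.

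The 3 largest falls among these calls were those of Dnttip1, Sap30 and Brms1. Sap30, a SIN3 subunit that helps to anchor the deacetylases and the most abundant of the list by the mean over all 4 libraries, was at 453 and 497 TPM in control libraries and at 228 and 188 TPM in DMSO libraries. Both DMSO libraries lay far below both control libraries, by -1.19 on the log2 scale with a standard error of 0.25 (limma adjusted p = 0.0278). Dnttip1 is the dimerizing subunit of the mitotic deacetylase complex MiDAC. It was at 6.49 and 6.35 TPM in control libraries and at 1.56 and 1.67 TPM in DMSO libraries. Its log2 fold change was -1.50 (limma adjusted p = 0.0285), and 11% of its words also occur in other genes. Brms1, a SIN3 subunit first known as a metastasis suppressor, was at 96.6 and 68.4 TPM in control libraries and at 35.3 and 38.6 TPM in DMSO libraries (log2 fold change -1.12, limma adjusted p = 0.0406), and 76.3% of its words also occur in another annotated gene, so that it is uncertain. The fourth call, named after its values were seen, was the NuRD subunit Mbd3, which fell by 0.96 on the log2 scale (limma adjusted p = 0.049954). Each of these 4 calls was lost when any one library was left out.

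The groups did not overlap for 17 of the 29 on the lower side and for 5 on the higher side, beside 38.7% and 31.1% of all genes tested. A further 4 subunits did not pass the test and are named here after their values were seen. Rcor1, the scaffold of CoREST, had the lowest fitted change among the 29 (log2 fold change -1.90, limma adjusted p = 0.103), with 59.4 and 22.2 TPM in control libraries and 19.2 and 3.99 TPM in DMSO libraries. Chd4, the remodelling ATPase of NuRD, was at 17.8 and 19.4 TPM in control libraries and at 47.0 and 28.0 TPM in DMSO libraries (limma adjusted p = 0.0869). Kdm1a, the demethylase of CoREST, was at 44.8 and 55.6 TPM and at 29.1 and 21.1 TPM (limma adjusted p = 0.0588). Tbl1xr1, a subunit of the NCoR complex, was at 11.9 and 4.14 TPM and at 35.8 and 17.8 TPM (limma adjusted p = 0.0650). In each of the 4 the groups did not overlap, which held for 69.8% of all genes tested, with Rcor1 and Kdm1a lower and the other two higher in DMSO libraries.

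By the same mean, Sap18 and Cdk2ap1 came next, an order that differed between libraries, Sap18 lying above Sap30 in both DMSO libraries and Sap30l above Cdk2ap1 in library 2 of each group. Sap18, a SIN3 subunit, shares 17.8% of its words with other genes. It was at 289 and 348 TPM in control libraries and at 402 and 279 TPM in DMSO libraries. Cdk2ap1, a NuRD subunit that shares 60.0% of its words with other genes, was at 163 and 129.8 TPM and at 139.9 and 71.5 TPM. The groups overlapped for both genes.

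The genes with the pattern most like that of Hdac1, among 38 members and subunits and over the 4 libraries, were Arid4b and Sap30, at Euclidean distances of 0.25 and 0.27 between centred log2(TPM + 1) values. Arid4b, another SIN3 subunit, was at 69.8 and 58.5 TPM in control libraries and at 41.5 and 33.7 TPM in DMSO libraries (limma adjusted p = 0.0884). The nearest to Hdac2 were Sap130 and Mbd2, at distances of 0.35 and 0.39. Sap130 of the SIN3 complex was at 15.3 and 8.09 TPM and at 26.9 and 19.8 TPM, and the NuRD subunit Mbd2, which binds methylated DNA, was at 7.98 and 6.94 TPM and at 17.0 and 12.5 TPM.

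**Figure D4:**
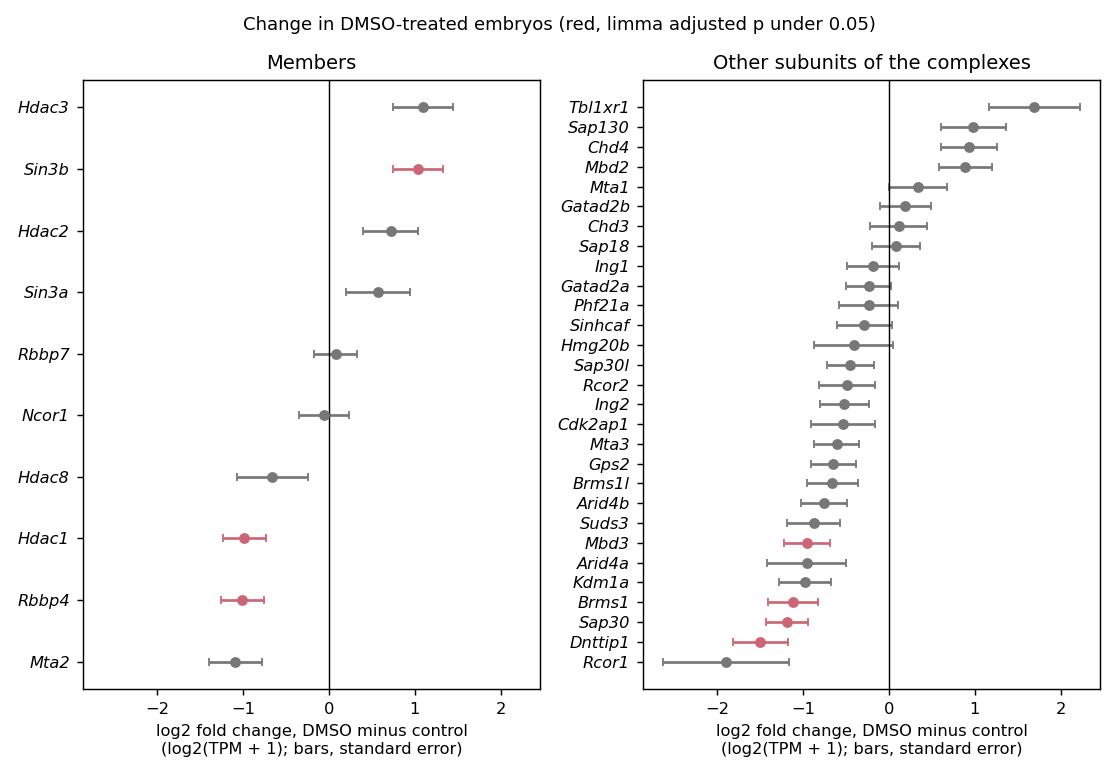
Log2 fold change, DMSO minus control on log2(TPM + 1), with standard errors as bars, for the 10 genes (left) and the 29 other subunits tested (right); red points have a limma adjusted p-value under 0.05. Hdac1 and Rbbp4 on the left and Dnttip1, Sap30, Brms1 and Mbd3 on the right are the red points below 0, and Sin3b is the red point above 0.

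Of the 7 class II and class IV deacetylases, which share the zinc-dependent chemistry but mostly act in other complexes or in the cytoplasm, 5 passed the filter and limma called 0. The unadjusted p-value was under 0.05 for 2 of the 5, a share near the 40.2% of all genes tested. Hdac5 was at 4.33 and 3.23 TPM in control libraries and at 0.548 and 1.43 TPM in DMSO libraries (limma adjusted p = 0.0562), and Hdac9 was at 1.73 and 1.91 TPM and at 5.64 and 4.71 TPM (limma adjusted p = 0.0532), both named after their values were seen. Hdac5 passed the filter on low values only through the control libraries. The most abundant, Hdac6, a deacetylase of tubulin, was at 19.4 and 11.7 TPM and at 8.48 and 16.3 TPM. Its level in every library was below that of Hdac1 in the same library.

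Promoters of 8 of the 10 genes were taken from RefSeq (GRCm38.p6), as 10 windows of 250 bases before the annotated start. Hdac1 had no entry in the source used here, and the promoter of Hdac3 was not analysed here. The GC box GGGCGG, on either strand, was in 8 of the 10 windows and in 32.7% of all 32851 windows of that length. The CCAAT box CCAAT, on either strand, was in 5 of the 10 and in 33.8% of all. Sin3a and Ncor1 entered with alternative starts, each counted as a window, and every Sin3a window held both motifs. Shown are the 150 bases before the start of Rbbp4, called lower (chr4:129335371-129335520, minus strand), and of Sin3b, called higher (chr8:72723120-72723269, plus strand), with both motifs in capitals in either orientation.
Rbbp4: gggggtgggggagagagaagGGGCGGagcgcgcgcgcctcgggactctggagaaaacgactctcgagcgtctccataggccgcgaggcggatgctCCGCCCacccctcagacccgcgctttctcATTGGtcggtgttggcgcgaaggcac
Sin3b: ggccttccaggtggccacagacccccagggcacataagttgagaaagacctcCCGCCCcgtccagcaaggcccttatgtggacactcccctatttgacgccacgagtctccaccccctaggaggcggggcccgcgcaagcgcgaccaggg
The window of 250 bases held 2 GC boxes, 1 CCAAT box and 67.6% G and C for Rbbp4, and 1 GC box, 0 CCAAT boxes and 50.8% G and C for Sin3b.

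The labelled stage was checked against markers. Of 15 oocyte and 2-cell genes 14 passed the filter. By limma 3 of them (Bmp15, Tcstv1 and Tcstv3) were called higher in DMSO-treated embryos and 0 lower, beside 6.42% and 14.1% of all genes tested. The 15 summed to 991 and 702 TPM in control libraries and to 2687 and 1774 TPM in DMSO libraries, with Tcstv3 the most abundant at 297, 209, 716 and 574 TPM. Nlrp5, an abundant oocyte gene, was listed at 0 or at most 0.142 TPM in every library. The summed levels were higher in the DMSO libraries, where Hdac1 and Rbbp4 were lower, and their part in those changes was not tested. Cumulus and granulosa markers were all listed under a mean of 1 TPM, with sums of 2.06 to 3.20 TPM over the 10. Low listed values do not show that such cells were absent, since Actb, the cytoplasmic actin gene that cells generally use, was itself listed at 1.09, 0.706, 8.58 and 0 TPM. Sperm markers summed to 2.96 and 3.38 TPM and to 13.5 and 8.69 TPM, led by Prm2. The 2 tested, Prm2 and Tnp1, were called higher, beside 6.42% of all genes tested. Tnp1 had passed the filter only through the DMSO libraries. Blood markers summed to 4.36 to 16.3 TPM. The 6 oviduct markers summed to 129 and 117 TPM and to 71.2 and 96.9 TPM. Epcam, which embryos express as well, was the most abundant (104 and 92.6 TPM, then 36.1 and 55.9 TPM). Of the 4 tested, 1 (Epcam) was called lower (limma adjusted p = 0.0466), beside 14.1% of all genes tested. Ovgp1, the defining oviduct marker, was at 17.9 and 19.5 TPM in control libraries and at 26.2 and 33.2 TPM in DMSO libraries, above both but not called (limma adjusted p = 0.144). The part of oviduct cells in the results was not tested. The 7 markers of blastocyst lineages summed to 66.1 and 54.8 TPM and to 45.0 and 48.7 TPM, 0 of them were called, and their directions differed. Gata4, the most abundant, had means of 48.7 TPM in control and 29.0 TPM in DMSO libraries, whereas Nanog had 7.38 and 12.7 TPM and Gata3 1.37 and 3.67 TPM.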

How the data were processed

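RNA of 2-cell embryos from 4 libraries was sequenced after cDNA amplification with the SMARTer Ultra Low kit. The authors mapped reads with kallisto to Ensembl transcripts of GRCm38 (mm10), summed them per gene with tximport and deposited TPM values. Per the labels, STAR, SAMtools and bedtools were also used, and no versions are given in the sources used here. The authors tested estimated counts, and no count test was run here on TPM. TPM sums were 768174 and 780527 in control libraries and 772487 and 799166 in DMSO libraries, and keep no depth.

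Genes whose mean reached 1 TPM were fitted on log2(TPM + 1) with limma 3.58.1 (R 4.3.3, eBayes with a trend, Benjamini-Hochberg over all genes tested, threshold 0.05, no block). The steps were first run on simulated data. The changes planted there were larger than those of the members called here, so recovery of changes of the members' size was not tested. Intervals are 95% limma intervals with 6.59 degrees of freedom. Ratios within a library were compared by exact two-sided permutation (scipy 1.17.1). Python 3.11.15, pandas 2.3.3, numpy 2.4.6 and matplotlib 3.10.9 were used. GENCODE M21 named 29589 identifiers and gave positions and transcripts. Words of 31 bases were matched on either strand to transcripts of all other genes, and a gene holding at least 5% of a member's words was added to it as an alternative. Coding stretches were taken from the longest reading frame. Of the subunits listed, Trerf1 was not analysed here, a further subunit and its ratio are not reported here, and Fam60a was matched as Sinhcaf. No source used here states that strand was kept, so overlapping antisense genes cannot be told apart. The genes and lists were chosen with earlier results of these data known. All 10 genes are named, with genes sharing their words, the 3 largest called changes each way and the 3 most abundant among the listed subunits and other deacetylases, and the 2 nearest in pattern to Hdac1 and to Hdac2. Alternatives covered the pseudocount, filters, the variance trend, scalings, the replicate block and leaving out each library.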

Additional observations from a re-analysis of the deposited data

How the results depend on the processing

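The calls of Hdac1, Rbbp4 and Sin3b lay close to the threshold. With no filter on low values limma called 0 genes lower and 0 higher over all genes tested, and so 0 members and 0 subunits, although 5368 genes had an unadjusted p-value under 0.05. Without a variance trend 0 members were called in either direction, 2 subunits lower and 1 class II or IV deacetylase higher. Of all genes tested, 11.6% were called lower and 5.23% higher in that fit. Median-ratio scaling gave 1 member lower (Hdac1) and 1 class II or IV deacetylase higher, beside 10.5% of all genes lower and 7.88% higher. Quantile normalization gave 0 members lower, 2 subunits lower and 1 higher, beside 1121 (9.31%) of all genes lower and 8.94% higher. A pseudocount of 0.1 and rescaling of each library to the same sum over the table each gave 0 members higher. The shares of all genes called higher there were 5.03% and 5.72%. A filter at 5 TPM gave 1 subunit higher, beside 10.3% of all genes tested, and 3 members lower, beside 22.5%. Ncor1 turned positive with median-ratio scaling (0.04) and quantile normalization (0.22). Without any one library, limma, in which the lone library of a group is assumed to vary like the others, called 0 to 1276 genes lower and 0 to 607 higher over all genes, 0 to 1 members lower (Mta2, without DMSO replicate 2), 0 members higher and 0 subunits lower. All genes had 0 calls in 3 of these 4 fits, with 2602 to 3745 genes at an unadjusted p-value under 0.05. The log2 fold changes then ran from -0.27 to 0.14 for Ncor1 and from -0.08 to 0.25 for Rbbp7, and the log2 difference of Sin3a to Sin3b from -1.00 to 0.01. The log2 fold changes of the other 8 members kept their sign under every alternative that could be fitted. Without any one library they still moved by over 1.5 times for Sin3a (0.12 without DMSO replicate 1, 0.31 without control replicate 2 and 1.02 without DMSO replicate 2), for Hdac8 (-0.28 without control replicate 2, -0.41 without DMSO replicate 1 and -1.04 without control replicate 1) and for Hdac2 (0.42 without control replicate 2). Hdac3 and Hdac8 did not pass the filter at 5 TPM.

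Both groups use the replicate numbers 1 and 2, but nothing in the labels ties same-numbered libraries, whose deviations from the group means correlated at r = 0.354 across 12038 genes. With the replicate number as a block limma called 2981 genes lower and 2151 higher (24.8% and 17.9%), 3 members higher (Hdac2, Hdac3 and Sin3b) and 3 lower (Hdac1, Mta2 and Rbbp4), 10 subunits lower and 4 higher, and 1 class II or IV deacetylase lower and 1 higher.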
